A study of Homo sapiens with 13 samples.

Results

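SKOV3 and OVCAR3, 2 established lines from human ovarian carcinomas, were compared gene by gene in their control libraries. These were 5 of the 13 libraries of the series and were chosen by their labels: 3 of SKOV3 carrying a control vector, with no treatment given, and 2 of OVCAR3 expressing a scrambled control peptide and held in 2000 ng/mL doxycycline for 6 days. The other 8 libraries were SKOV3 overexpressing RSF1 (3), SKOV3 overexpressing RSF1delUAB (3) and OVCAR3 expressing a UAB peptide under the same doxycycline (2). The study addressed RSF1, a chromatin remodelling factor, in ovarian cancer, and poly-A RNA was sequenced. Each line stands alone, with no other line beside it, and line, vector, peptide, doxycycline and count table are the same split of the libraries, so that their parts in any difference below cannot be told apart. The labels do not say that replicates came from separate cultures, so the p-values reflect only how far the sequenced samples of a group scatter, and that scatter may be technical.

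Ovarian carcinoma is grouped into histotypes. High-grade serous carcinoma keeps regulators of the Müllerian duct and fallopian tube such as PAX8 and WT1, carries surface antigens such as MUC16, and typically has many copy-number changes. Mucinous carcinoma is known for intestinal genes. SKOV3 is a mesenchymal-looking line known for amplified ERBB2 and loss of the CDKN2A locus. OVCAR3 is an epithelial line from ascites, known for amplified CCNE1. DNA copy number was not measured here, and positions below are those of GRCh38.

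Total counts per library were 15488615 to 15856521 in SKOV3 and 23256691 to 24026993 in OVCAR3. Mitochondrially encoded genes took 3.51 to 3.59% of counts in SKOV3 and 7.23 to 7.48% in OVCAR3. Pearson's r across genes of log2 CPM (the count scaled to library size) was 0.995 to 0.996 within SKOV3 and 0.993 within OVCAR3. Between lines it was 0.767 to 0.769, and genes are not independent replicates. Replicates thus scattered more in OVCAR3 than in SKOV3, while the test below uses a spread per gene that both lines share. Summed levels of immune, fibroblast, endothelial and mesothelial markers are given with their lists below. Of the defining markers of ovarian carcinoma, PAX8 and MSLN were present in both lines, whereas MUC16, WFDC2 and FOLR1 were near 0 in SKOV3. In bulk RNA, fewer cells expressing a gene and less RNA per cell cannot be told apart.

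Most of the transcriptome differed. Of 18056 genes tested, 6831 (37.8%) were higher in SKOV3 and 7739 (42.9%) were lower at an adjusted p under 0.05 (edgeR quasi-likelihood test with Benjamini-Hochberg adjustment), together 80.7%. The 5 libraries did not overlap between lines for 86.4% of genes. With a fold of at least 4 required as well, 1944 genes (10.8%) were higher in SKOV3 and 3393 (18.8%) were lower. The median log2 fold change of all tested genes was -0.09. A call by itself therefore separates few genes from the rest, and sizes and levels are given beside each count. Log2 fold changes are SKOV3 minus OVCAR3 throughout, so that negative values mean lower in SKOV3. Where a group had 0 counts, the fold is a lower bound set by 3 counts over the group. Where it had 1 to 3 counts, the ratio is given with a counting interval. Both cover counting error only. Each SE is derived from the fold and its test statistic. For genes with few counts in a line it is smaller than the counting error of the fold and does not give its precision.

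The genes that mark the 2 lines stood far apart. ERBB2 (ENSG00000141736, chromosome 17, 39687914 to 39730426, plus strand), the receptor tyrosine kinase HER2, was at 8425, 8659 and 7978 CPM in SKOV3 and at 127 and 122 CPM in OVCAR3, a log2 fold change of 6.04 (SE 0.0867, adjusted p = 5.71e-20). No library of SKOV3 came near the OVCAR3 range. CDKN2A (ENSG00000147889, chromosome 9, 21967752 to 21995301, minus strand), which encodes the cell-cycle inhibitor p16 and ARF, was at 0 counts in all 3 SKOV3 libraries and at 589 and 444 CPM in OVCAR3, at least 7935-fold lower in SKOV3 (adjusted p = 9.21e-10). CCNE1 (ENSG00000105173, chromosome 19, 29811991 to 29824312, plus strand), the cyclin that drives entry into S phase, was at 20.5, 17.6 and 17.7 CPM in SKOV3 and at 146 and 118 CPM in OVCAR3, a log2 fold change of -2.85 (SE 0.105, adjusted p = 9.78e-15). These 3 genes separated the lines without overlap and in the directions that the background of the lines gives. RSF1 (ENSG00000048649, chromosome 11, 77660009 to 77820869, minus strand), the gene the study overexpressed in SKOV3, was at 41.6, 47.2 and 41.9 CPM in SKOV3 and at 551 and 691 CPM in OVCAR3, a log2 fold change of -3.86 (SE 0.0965, adjusted p = 5.75e-17).

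Construct libraries kept the order of the first 3 genes, with changes in level. The labels do not say whether the SKOV3 control and construct libraries came from 1 stock of cells, and some arms and genes below differ between them. Mean ERBB2 was 8354 ± 346 CPM in SKOV3 control (SD, n = 3), 2553 ± 353 in SKOV3 RSF1 (SD, n = 3) and 7682 ± 258 in SKOV3 RSF1delUAB (SD, n = 3), against 125 ± 3.34 in OVCAR3 scrambled and 112 ± 1.80 in OVCAR3 UAB (SD, n = 2 each). CDKN2A had a mean of 0 CPM in SKOV3 RSF1, 0.0195 in SKOV3 RSF1delUAB and 418 ± 60.0 in OVCAR3 UAB (SD, n = 2). SKOV3 RSF1 had the lowest ERBB2 of the SKOV3 groups, still above both OVCAR3 groups. RSF1 reached 736 ± 77.4 CPM in SKOV3 RSF1 and 495 ± 24 in SKOV3 RSF1delUAB (SD, n = 3 each) against 670.0 ± 139 in OVCAR3 UAB (SD, n = 2). The plot of anchor genes shows these levels by library.

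**Figure D1:**
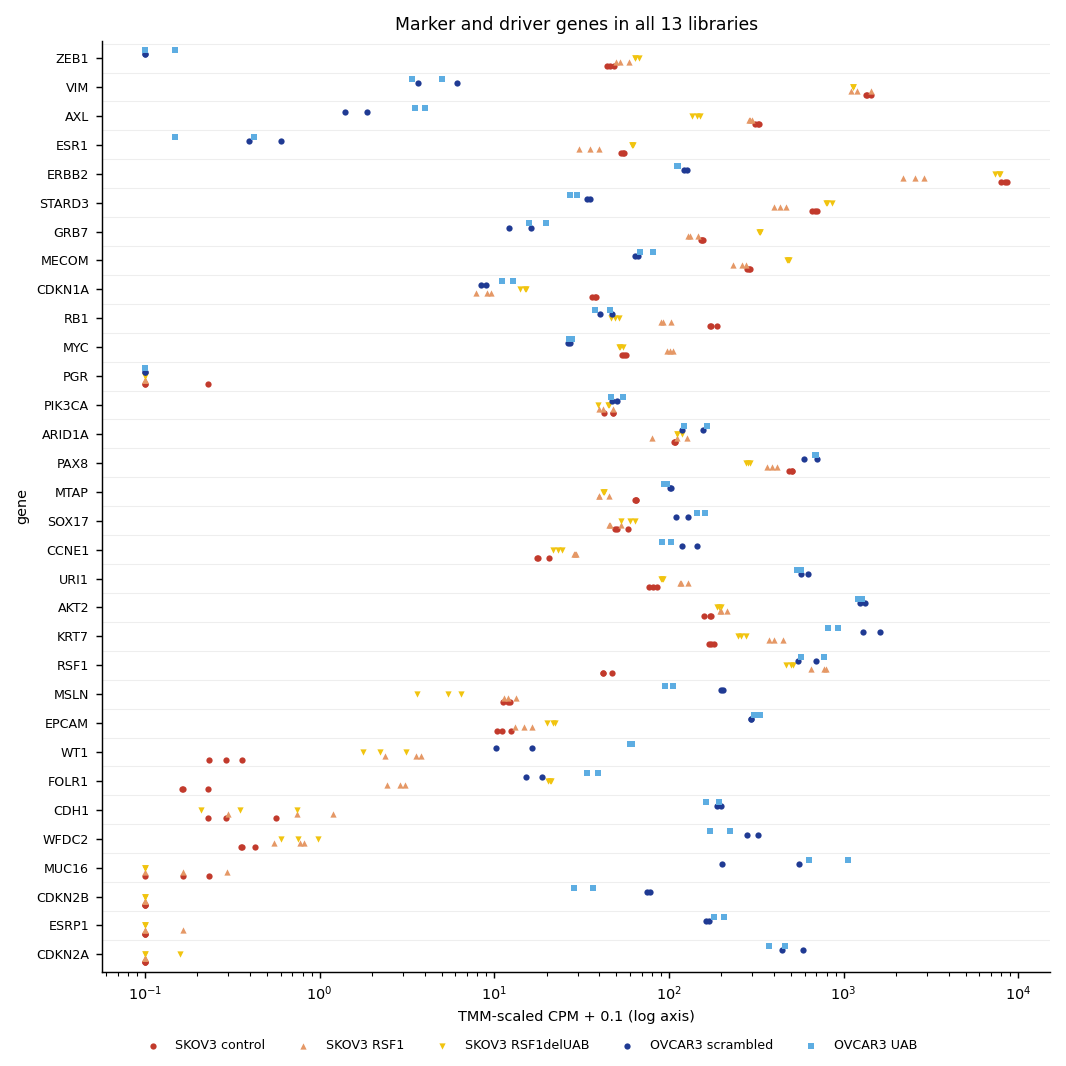
TMM-scaled CPM plus 0.1 (log axis) of anchor genes in each library, with colour and shape for the 5 groups; points are libraries. ERBB2 and VIM sit high in all SKOV3 groups, CDKN2A, EPCAM and CDH1 sit high in both OVCAR3 groups, and RSF1 is low only in the SKOV3 control libraries.

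Among 35 anchor genes of lineage, histotype and copy number, 34 were tested, 12 were higher in SKOV3 and 21 were lower. In SKOV3 RSF1 against OVCAR3 UAB, which shares no library with the control comparison and in which 74.9% of genes were called, 31 of these 33 were called in the same direction; RSF1 and CDKN1A were the exceptions. PIK3CA, the catalytic PI3-kinase subunit, was at 42.6, 48.1 and 47.6 CPM in SKOV3 and at 47 and 50.3 CPM in OVCAR3 and did not pass (adjusted p = 0.305). PGR, the progesterone receptor, was at 0.131, 0 and 0 CPM in SKOV3 and at 0 counts in both OVCAR3 libraries, too low to test.

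Regulators of Müllerian and gonadal identity split between the lines. Of 25 such transcription factors, 20 were tested, 5 were higher in SKOV3 and 14 were lower, with a median log2 fold change of -1.10. PAX8, the Müllerian lineage factor, was at 509, 506 and 490.3 CPM in SKOV3 and at 593 and 700.2 CPM in OVCAR3, a log2 fold change of -0.39 (SE 0.0766, adjusted p = 1.21e-04). Both lines thus carried PAX8 at levels within 2-fold of each other. WT1, a factor of serous carcinoma and mesothelium, was at 0.261, 0.132 and 0.193 CPM in SKOV3 and at 10.2 and 16.3 CPM in OVCAR3, a log2 fold change of -6.06 (SE 0.344, adjusted p = 6.69e-12). SOX17, which acts with PAX8 in the fallopian tube, was at 48.9, 58.6 and 50.6 CPM in SKOV3 and at 128 and 109 CPM in OVCAR3, a log2 fold change of -1.20 (SE 0.0950, adjusted p = 1.01e-09). Several factors were near 0 in SKOV3: SOX2 had a ratio of 7696 in favour of OVCAR3 (95% counting interval 1381 to 304033), EMX2 had a ratio of 4136 in favour of OVCAR3 (95% counting interval 742 to 163389), and FOXL2 was at least 329-fold lower in SKOV3. MEIS1, a HOX cofactor, was also lower in SKOV3, with a log2 fold change of -3.03.

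Other regulators ran the opposite way. LHX1, a factor of early nephric and Müllerian duct, was at 115, 118 and 118 CPM in SKOV3 and at 0.418 and 0.549 CPM in OVCAR3, a log2 fold change of 7.87 (SE 0.155, adjusted p = 1.28e-18). Its level in OVCAR3 UAB was 33.6 ± 2.92 CPM (SD, n = 2), and in SKOV3 RSF1 against OVCAR3 UAB its difference did not pass (log2 fold change 0.21, adjusted p = 0.134). ESR1, the oestrogen receptor alpha, was at 55.4, 54.3 and 53 CPM in SKOV3 and at 0.501 and 0.296 CPM in OVCAR3, a log2 fold change of 7.04 (SE 0.186, adjusted p = 6.68e-17). MECOM, a 3q26 oncogene of the Müllerian lineage, was at 286, 280.2 and 292 CPM in SKOV3 and at 63.9 and 66.1 CPM in OVCAR3, a log2 fold change of 2.11 (SE 0.0795, adjusted p = 1.29e-14). GATA6 and NR2F1 were higher in SKOV3 as well, with log2 fold changes of 1.91 and 2.95; for NR2F1 the construct libraries gave -1.77, the other direction.

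Serous carcinoma antigens were nearly all lower in SKOV3. Of 27 listed antigens, 26 were tested, 1 was higher in SKOV3 and 25 were lower, with a median log2 fold change of -4.94, or -4.86 with genes at 0 set at their bound. MUC16, the CA125 antigen, was at 0.0653, 0.132 and 0 CPM in SKOV3 and at 202 and 555 CPM in OVCAR3, a ratio of 5799 in favour of OVCAR3 (95% counting interval 1984 to 28123), with a wide spread between the OVCAR3 libraries. SLC34A2, a phosphate transporter of the fallopian tube and lung, was at 0.0653, 0 and 0 CPM in SKOV3 and at 807 and 1002 CPM in OVCAR3, a ratio of 41659.9 in favour of OVCAR3 (95% counting interval 7477 to 1645518). WFDC2, the secreted marker HE4, was at 0.261, 0.329 and 0.257 CPM in SKOV3 and at 323 and 281 CPM in OVCAR3, a log2 fold change of -10.06 (SE 0.151, adjusted p = 6.96e-20). VTCN1, the immune ligand B7-H4, was at 0 counts in all 3 SKOV3 libraries and at 122 and 154 CPM in OVCAR3, at least 2123-fold lower in SKOV3 (adjusted p = 6.54e-15). MUC16, SLC34A2, WFDC2 and VTCN1 were thus abundant in OVCAR3 and near or at 0 in the SKOV3 controls. In RSF1 against UAB, 4 of the listed antigens were called higher in SKOV3 and 21 lower, with a median of -3.43. For 3 antigens the 2 comparisons gave calls in opposite directions.

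Of MSLN (mesothelin) and FOLR1 (folate receptor alpha), MSLN kept a lower level in SKOV3 and FOLR1 was near 0 there. MSLN was at 12, 12.3 and 11.1 CPM in SKOV3 and at 205 and 197 CPM in OVCAR3, a log2 fold change of -4.12 (SE 0.0901, adjusted p = 4.35e-18). FOLR1 was at 0.131, 0.0659 and 0.0642 CPM in SKOV3 and at 15.1 and 18.8 CPM in OVCAR3, a log2 fold change of -7.53 (SE 0.323, adjusted p = 9.52e-14), and its mean was 20.7 ± 0.425 CPM in SKOV3 RSF1delUAB (SD, n = 3). The kallikrein proteases KLK5, KLK6, KLK7 and KLK8 were at 0 counts in the SKOV3 controls and at means of 17.2, 2.06, 8.40 and 5.02 CPM in OVCAR3. SPP1, the secreted phosphoprotein osteopontin, was the 1 antigen higher in SKOV3, at 908, 912 and 965 CPM in SKOV3 and at 2.84 and 3.93 CPM in OVCAR3, a log2 fold change of 8.07 (SE 0.126, adjusted p = 1.05e-19).

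Genes of other histotypes gave no single direction. Of 17 clear cell and endometrioid genes, 12 were tested, 5 were higher in SKOV3 and 6 were lower, with a median log2 fold change of -0.10 (0.19 at a minimum count of 50). TFPI2 and ANXA4, listed for clear cell carcinoma, were higher in SKOV3 with log2 fold changes of 3.68 and 2.34, while NAPSA and HNF4A were too low to test. The WNT target LEF1 was lower in SKOV3 (-2.31) and NKD1 was higher (2.90), though not in RSF1 against UAB (-0.18). Of 19 mucinous and intestinal genes, 4 were tested, and 12 of the 19 were at 0 counts in SKOV3 and 6 in OVCAR3. MUC13, a transmembrane mucin, was at 9.27, 10.4 and 10.8 CPM in SKOV3 and at 0.292 and 0.211 CPM in OVCAR3, a log2 fold change of 5.27 (SE 0.305, adjusted p = 9.13e-12). AGR2, a disulfide isomerase of secretory epithelium, was at 0, 0 and 0.128 CPM in SKOV3 and at 15.4 and 22.3 CPM in OVCAR3, a ratio of 434 in favour of OVCAR3 (95% counting interval 119.7 to 3586).

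High ESR1 RNA in SKOV3 did not come with a uniform difference in oestrogen response genes. Of 17 listed genes, ESR1 included, 13 were tested, 6 were higher in SKOV3 and 7 were lower, with a median log2 fold change of -2.12. At a minimum count of 50, which tests fewer of them, the median was 0.99, the other direction. CA12 and RET were higher in SKOV3: CA12, a carbonic anhydrase, with a log2 fold change of 2.14 (SE 0.128, adjusted p = 2.10e-09), and RET, a receptor kinase, with a ratio of 125 in favour of SKOV3 (95% counting interval 34.2 to 1038). STC2 was at 0.718, 0.263 and 0.128 CPM in SKOV3 and at 118 and 108 CPM in OVCAR3, a log2 fold change of -8.26 (SE 0.199, adjusted p = 4.27e-17), and IGFBP4, a binding protein of insulin-like growth factors next to TOP2A on 17q, was at 0.0653, 0.329 and 0 CPM in SKOV3 and at 362 and 284 CPM in OVCAR3, a log2 fold change of -11.23 (SE 0.255, adjusted p = 4.76e-13). GREB1, a classical oestrogen target, was lower in SKOV3 (-3.02).

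Epithelial genes were lower in SKOV3 as a group. Of 34 genes of epithelial adhesion, polarity and splicing, all were tested, 2 were higher in SKOV3 and 32 were lower, with a median log2 fold change of -5.19; 26 were at least 4-fold lower. CDH1 (ENSG00000039068, chromosome 16, 68737292 to 68835537, plus strand), E-cadherin, was at 0.131, 0.461 and 0.193 CPM in SKOV3 and at 189 and 199 CPM in OVCAR3, a log2 fold change of -9.53 (SE 0.169, adjusted p = 3.65e-19). ESRP1, a splicing regulator of epithelial isoforms, was at 0 counts in all 3 SKOV3 libraries and at 169 and 164 CPM in OVCAR3, at least 2557-fold lower in SKOV3 (adjusted p = 3.52e-18). EPCAM (ENSG00000119888, chromosome 2, 47345158 to 47387601, plus strand), an epithelial adhesion molecule, was at 10.3, 11 and 12.3 CPM in SKOV3 and at 294 and 294 CPM in OVCAR3, a log2 fold change of -4.74 (SE 0.0920, adjusted p = 1.13e-18), so that SKOV3 retained a measurable level. Transcription factors that act in epithelial identity were lower as well. GRHL2 had a ratio of 4493 in favour of OVCAR3 (95% counting interval 806 to 177496), OVOL1 was at least 98.4-fold lower in SKOV3, and EHF had a log2 fold change of -5.40. DSP and DSG2, both of desmosomes, were the 2 listed genes higher in SKOV3, with log2 fold changes of 0.95 and 1.77.

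The tight junction gene CLDN3, the vesicle gene RAB25 and the basolateral sorting adaptor AP1M2 are printed below with their promoter windows, as 3 genes of this group with large differences and with the E-box CAGGTG, chosen after their values were seen. This pattern, CACCTG when read on the other strand, is the one that ZEB and SNAI factors are known to bind. CLDN3 was at 0.196, 0.132 and 0 CPM in SKOV3 and at 293 and 281 CPM in OVCAR3, a log2 fold change of -11.31 (SE 0.185, adjusted p = 1.59e-19). RAB25 was at 0, 0.0659 and 0.193 CPM in SKOV3 and at 158 and 145 CPM in OVCAR3, a log2 fold change of -10.69 (SE 0.210, adjusted p = 1.24e-18). AP1M2 was at 0.718, 0.461 and 0.257 CPM in SKOV3 and at 129 and 112 CPM in OVCAR3, a log2 fold change of -7.98 (SE 0.175, adjusted p = 4.39e-18). Windows run from 250 bases before to 50 after the start in RefSeq GRCh38.p14, 5′ to 3′ on the gene's strand, with capitals marking the E-box: 3 in AP1M2 (chr19:10587263-10587562, minus strand), 2 in RAB25 (chr1:156060910-156061209, plus strand) and 1 in CLDN3 (chr7:73770221-73770520, minus strand).
AP1M2: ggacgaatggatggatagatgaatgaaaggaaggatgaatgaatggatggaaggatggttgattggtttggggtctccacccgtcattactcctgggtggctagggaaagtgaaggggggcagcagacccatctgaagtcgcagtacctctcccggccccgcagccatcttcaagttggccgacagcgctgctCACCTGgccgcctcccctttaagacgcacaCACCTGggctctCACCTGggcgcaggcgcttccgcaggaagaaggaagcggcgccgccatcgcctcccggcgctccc
RAB25: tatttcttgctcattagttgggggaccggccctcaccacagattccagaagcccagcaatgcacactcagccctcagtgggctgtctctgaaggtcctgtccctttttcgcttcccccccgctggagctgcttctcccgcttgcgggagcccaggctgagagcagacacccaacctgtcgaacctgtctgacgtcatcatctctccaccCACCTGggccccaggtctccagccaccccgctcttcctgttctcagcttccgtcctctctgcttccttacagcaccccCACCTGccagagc
CLDN3: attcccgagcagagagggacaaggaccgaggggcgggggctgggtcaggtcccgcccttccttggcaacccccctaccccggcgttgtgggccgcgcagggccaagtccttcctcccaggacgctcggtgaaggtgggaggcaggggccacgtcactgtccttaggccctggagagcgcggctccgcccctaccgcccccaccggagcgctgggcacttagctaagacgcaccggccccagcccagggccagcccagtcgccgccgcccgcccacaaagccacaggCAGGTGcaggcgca

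The pattern was common in windows of the epithelial genes, both strands searched. It was found in 10 of the 19 listed epithelial genes with a window (52.6%), in 9 of 17 serous antigens (52.9%) and in 3 of 20 mesenchymal genes (15%). Of the 34 listed epithelial genes only these 19 had a window, and CDH1, EPCAM, ESRP1, GRHL2 and OVOL1 were among those without. The plan for the windows named only CpG count and GC content, and the search for this pattern was added to it. Among genes on in OVCAR3, at least 64-fold lower in SKOV3 with at least 5 RPKM (CPM per kilobase of gene length) in OVCAR3, 66 of 185 windows held it (35.7%). The reverse set, on in SKOV3, had 11 of 67 (16.4%). For comparison, 2381 of 12342 tested genes (19.3%) and 20.1% of all windows of this length held it. Median CpG counts per window were 26 for tested genes, 19 for genes on in OVCAR3 and 17 for genes on in SKOV3. The epithelial and serous lists share members with each other and with the set on in OVCAR3. DSG2 (1.77) and DSP (0.95), the listed epithelial genes higher in SKOV3, held 2 each. Beside these and the printed genes, CRB3 (-3.79), OCLN (-1.76), ELF3 (-1.76), CDS1 (-0.66) and DSC2 (-0.55) held it. SPINT1 (-7.07), LSR (-6.89), TJP3 (-6.13), EHF (-5.40), CLDN4 (-5.14), GRHL1 (-4.98), CLDN7 (-4.89), JUP (-2.15) and MARVELD2 (-0.66) held none. A match is a letter pattern in these windows, and no binding was measured.

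Keratins followed the epithelial genes. Of 16 keratins, 15 were tested, 1 was higher in SKOV3 and 14 were lower, with a median log2 fold change of -4.57. KRT8, KRT18, KRT7 and KRT19, the keratins of simple epithelium, had log2 fold changes of -3.40, -3.30, -3.08 and -2.84. Their means in SKOV3 were still 332, 143, 176 and 165 CPM. KRT4, a keratin of stratified mucosa, was at 0 counts in all 3 SKOV3 libraries and at 240.0 and 229 CPM in OVCAR3, at least 3599-fold lower in SKOV3 (adjusted p = 1.42e-18). KRT6A, KRT13, KRT16, KRT17 and KRT23 were also at 0 counts in the SKOV3 controls. KRT81 and KRT86 share reads with near-identical copies and are uncertain. KRT80 was higher in SKOV3 (0.55), and was lower in SKOV3 RSF1 against OVCAR3 UAB (-0.75).

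Mesenchymal genes were mostly higher in SKOV3. Of 35 listed genes, 30 were tested, 23 were higher in SKOV3 and 5 were lower, with a median log2 fold change of 2.99. VIM (ENSG00000026025, chromosome 10, 17228241 to 17237593, plus strand), the intermediate filament vimentin, was at 1429.7, 1367 and 1342 CPM in SKOV3 and at 3.55 and 6.04 CPM in OVCAR3, a log2 fold change of 8.14 (SE 0.164, adjusted p = 7.56e-15). ZEB1 (ENSG00000148516, chromosome 10, 31318495 to 31529814, plus strand), a repressor of epithelial genes, was at 45.9, 43.9 and 48.3 CPM in SKOV3 and at 0 counts in both OVCAR3 libraries, at least 731-fold higher in SKOV3 (adjusted p = 2.93e-16). SNAI2, the repressor SLUG, was at 117, 113 and 118 CPM in SKOV3 and at 0 counts in both OVCAR3 libraries, at least 1843-fold higher in SKOV3 (adjusted p = 3.52e-18). AXL, a receptor tyrosine kinase, was at 323, 329 and 311 CPM in SKOV3 and at 1.30 and 1.77 CPM in OVCAR3, a log2 fold change of 7.68 (SE 0.131, adjusted p = 2.44e-19). Neither ZEB1 nor SNAI2 gave a count in the OVCAR3 controls, while both were well above the floor in every SKOV3 library.

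The mesenchymal list was not uniform. SNAI1 was lower in SKOV3 (-2.81), as were COL1A1 (-3.47), COL1A2 (-2.17), COL6A1 (-2.47) and MMP2 (-1.0). MMP2 had 4.17 and 3.84 in the construct comparisons and COL1A2 had 0.60 and 1.82, the other direction. COL6A1, at 0.056 and 0.025 there, did not pass, nor did SNAI1 in RSF1delUAB against UAB (-0.089). TWIST1 was at 23.3, 26.3 and 23 CPM in SKOV3 and at 22.3 and 30.5 CPM in OVCAR3 and SPARC at 2.16, 2.17 and 2.44 CPM in SKOV3 and at 3.13 and 2.45 CPM in OVCAR3, and neither passed. TWIST2, related to TWIST1, was at 17.6, 15.1 and 19.5 CPM in SKOV3 and at 0 counts in both OVCAR3 libraries, at least 276-fold higher in SKOV3 (adjusted p = 2.91e-13). CAV1, CAV2 and CAVIN1, which build caveolae, were higher in SKOV3 with log2 fold changes of 5.07, 4.27 and 4.41. The plot of lists sets the epithelial, keratin, serous and mesenchymal genes beside the others.

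**Figure D2:**
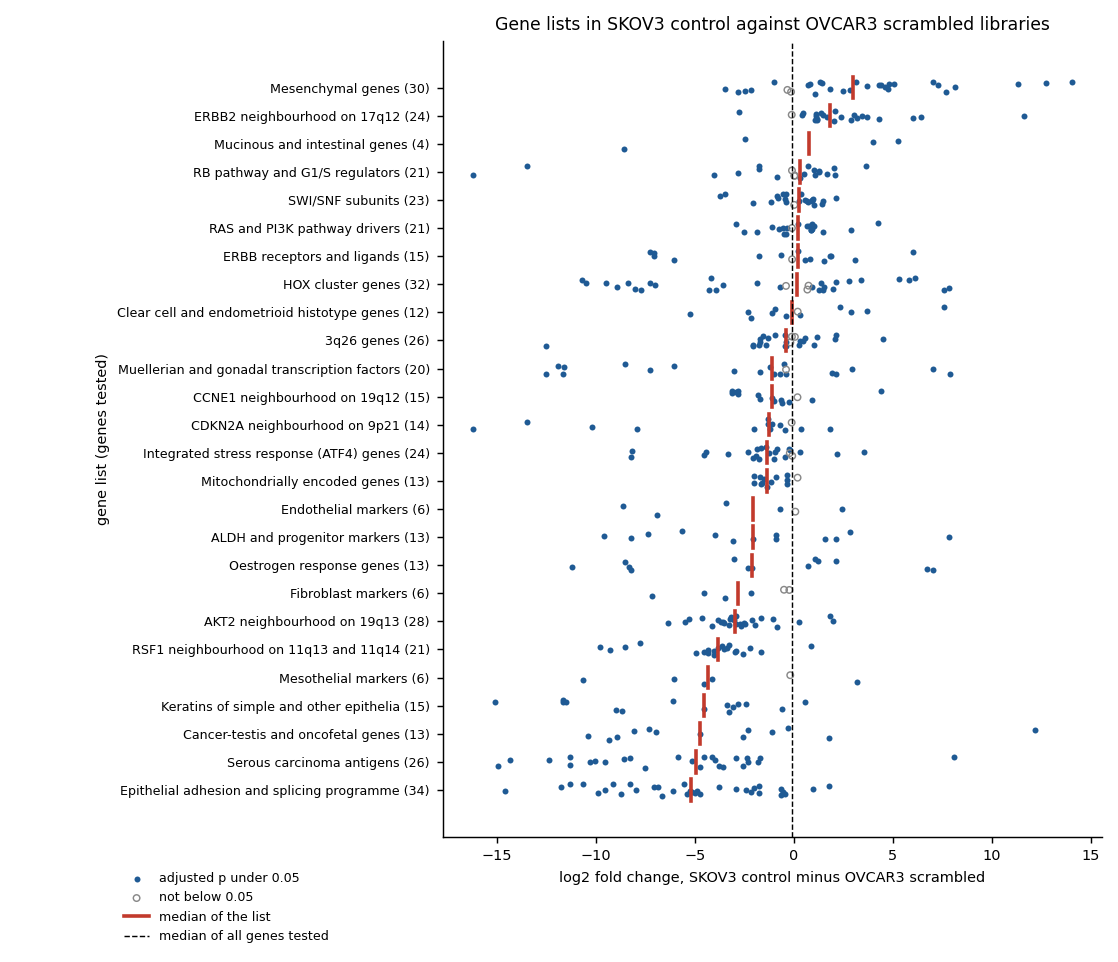
Log2 fold change (SKOV3 minus OVCAR3) of each tested gene in lists with at least 4 tested genes; filled points are genes with an adjusted p under 0.05, open points the others, bars list medians, the dashed line the median of all genes tested, and genes at 0 counts in a line stand at fitted values that are no bound. Epithelial, keratin and serous lists lie mostly below 0, and mesenchymal genes and the 17q12 genes mostly above 0.

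Genes around ERBB2 were higher in SKOV3 as a block. From MED1 to TOP2A (chromosome 17, 39404285 to 40417896, 1.01 Mb), 19 of 23 tested genes were at least 2-fold higher and the median log2 fold change was 1.49, against 0.03 for the 17q arm. Blocks are built from genes that differ in 1 direction, so that the direction and size of a block median partly follow from that choice. Over all 12417 genes walked in this way, 20.2% were at least 2-fold higher and 22.8% at least 2-fold lower. STARD3, a lipid transfer protein, was at 689.6, 708 and 659 CPM in SKOV3 and at 34.1 and 35.1 CPM in OVCAR3, a log2 fold change of 4.28 (SE 0.0875, adjusted p = 2.04e-18). GRB7, an adaptor of receptor kinases, was at 155, 157 and 153 CPM in SKOV3 and at 16.1 and 12.1 CPM in OVCAR3, a log2 fold change of 3.43 (SE 0.112, adjusted p = 1.55e-15). MIEN1 (6.41) overlaps the end of ERBB2 and is uncertain. PPP1R1B, the phosphatase inhibitor DARPP-32, was at 1372, 1424 and 1317 CPM in SKOV3 and at 0.418 and 0.422 CPM in OVCAR3, a log2 fold change of 11.62 (SE 0.141, adjusted p = 1.25e-20), and had 89.8 ± 6.24 CPM in SKOV3 RSF1 (SD, n = 3). From PPP1R1B to GRB7 the lowest log2 fold change in the block was 2.87 (PGAP3), and the highest outside that stretch was 2.39 (NR1D1). FBXL20, before the block, had a log2 fold change of 0.46, and IGFBP4, after it, -11.23. Exceptions inside the block were IKZF3 (-2.80), ORMDL3 (0.39), RAPGEFL1 (-0.12) and RARA (0.21). In the construct comparisons against OVCAR3 UAB the block's medians were 1.39 for RSF1 and 1.80 for RSF1delUAB.

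On 19q, the blocks around CCNE1 and AKT2 were both lower in SKOV3. That around CCNE1 ran from POP4 to NUDT19 (chromosome 19, 29606283 to 32713792, 3.11 Mb), with 8 of 10 genes at least 2-fold lower and a median of -2.34. Its first 5 genes were alike: POP4 -2.85, PLEKHF1 -3.16, C19orf12 -3.13, CCNE1 -2.85 and URI1 -2.91 in log2 fold change. No gene was walked between URI1, 0.11 Mb past CCNE1, and ZNF507, 2.53 Mb past it. The members beyond that gap differed less: ZNF507 -0.59, DPY19L3 -1.01, PDCD5 -1.10, ANKRD27 -0.24 and NUDT19 -1.83. In the construct comparisons the CCNE1 block's medians were -1.56 for RSF1 and -2.02 for RSF1delUAB. UQCRFS1, just before POP4, had 0.18 and did not pass. URI1, a prefoldin-like protein, was at 81.4, 76.5 and 85.1 CPM in SKOV3 and at 626 and 568 CPM in OVCAR3, a log2 fold change of -2.91 (SE 0.0787, adjusted p = 9.04e-17).

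A larger block lay around AKT2, a kinase of the PI3K pathway. From ZNF573 to SERTAD3 (chromosome 19, 37735833 to 40444335, 2.71 Mb), 58 of 60 tested genes were at least 2-fold lower, all 60 were called and the median was -3.21, against -0.45 for the 19q arm. AKT2 (ENSG00000105221, chromosome 19, 40230317 to 40285536, minus strand) was at 158, 175 and 171 CPM in SKOV3 and at 1326 and 1235 CPM in OVCAR3, a log2 fold change of -2.96 (SE 0.0736, adjusted p = 2.73e-17). SUPT5H, an elongation factor, was at -3.18 in log2 fold change, PSMC4, a proteasome subunit, at -3.27, and PLD3 at -4.63. BLVRB, the next gene after SERTAD3, was higher in SKOV3 (1.80), so that the sign changed between neighbours. ACTN4 and HNRNPL were the 2 members under 2-fold. The construct comparisons gave -2.42 and -2.63 for the same genes.

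The genes around RSF1 itself were lower in SKOV3. From NEU3 to TENM4 on 11q (chromosome 11, 74988279 to 79441030, 4.45 Mb), 30 of 32 tested genes were at least 2-fold lower, with a median of -3.86 against -0.48 for the arm. ALG8, a glycosyltransferase, was at 23.3, 26.5 and 24.2 CPM in SKOV3 and at 517 and 474 CPM in OVCAR3, a log2 fold change of -4.35 (SE 0.0852, adjusted p = 1.24e-18). CLNS1A, a chaperone of splicing proteins, was at 56.1, 57.1 and 58.3 CPM in SKOV3 and at 1207 and 1095 CPM in OVCAR3, a log2 fold change of -4.36 (SE 0.0777, adjusted p = 3.84e-19). PAK1, a kinase of the cytoskeleton, was at 29.9, 27.6 and 29.6 CPM in SKOV3 and at 303 and 298 CPM in OVCAR3, a log2 fold change of -3.40 (SE 0.0805, adjusted p = 1.39e-17). RSF1's own log2 fold change of -3.86 lay at the median of this block, which includes RSF1 and was built outward from it by the same values. THRSP overlaps NDUFC2 and is uncertain. TENM4 was at 0 counts in the SKOV3 controls but had 35 ± 13 CPM in SKOV3 RSF1 (SD, n = 3), above the 6.01 ± 0.819 of OVCAR3 scrambled (SD, n = 2). ARRB1 and NARS2 were the exceptions, and NARS2 was higher in SKOV3 (0.85). The construct comparisons gave medians of -2.51 and -3.07.

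At 9p21, CDKN2A and its neighbour CDKN2B gave no count in SKOV3. CDKN2B (ENSG00000147883, chromosome 9, 22002903 to 22009305, minus strand), the inhibitor p15, was at 0 counts in all 3 SKOV3 libraries and at 77.6 and 74.7 CPM in OVCAR3, at least 1169-fold lower in SKOV3 (adjusted p = 9.19e-17), and DMRTA1 beyond it was at 0, 0.132 and 0.0642 CPM in SKOV3 and at 17.7 and 16.5 CPM in OVCAR3, a ratio of 262 in favour of OVCAR3 (95% counting interval 89.4 to 1275). The antisense transcript CDKN2B-AS1 was at 0 counts in SKOV3 too, but is uncertain because the strand setting is not given. MTAP (ENSG00000099810, chromosome 9, 21802636 to 21937651, plus strand), the neighbouring methylthioadenosine phosphorylase, was at 64.9, 63.6 and 64.7 CPM in SKOV3 and at 103 and 102 CPM in OVCAR3, a log2 fold change of -0.70 (SE 0.0790, adjusted p = 1.67e-07). MTAP was thus expressed in both lines while CDKN2A and CDKN2B were not detected in SKOV3. From CDKN2A to B4GALT1 (11.2 Mb), 14 of 17 genes were at least 2-fold lower with a median of -1.60, against -0.78 for the 9p arm.

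The 3q26 genes, a region often gained in serous carcinoma, did not move together. Of 31 listed 3q26 genes, 26 were tested, 9 were higher in SKOV3 and 14 were lower, with a median log2 fold change of -0.42 (0.23 in each construct comparison). MECOM lay in a block of 4 genes from SERPINI1 to ACTRT3, each at least 2-fold higher in SKOV3, with a median of 1.62 against -0.87 for the 3q arm. NCEH1, a cholesteryl ester hydrolase, was at 113, 103 and 108 CPM in SKOV3 and at 4.51 and 4.82 CPM in OVCAR3, a log2 fold change of 4.51 (SE 0.115, adjusted p = 3.77e-17). PRKCI, a polarity kinase, was lower in SKOV3 (-1.55), as were TNIK (-2.05) and NDUFB5 (-1.77).

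**Figure D3:**
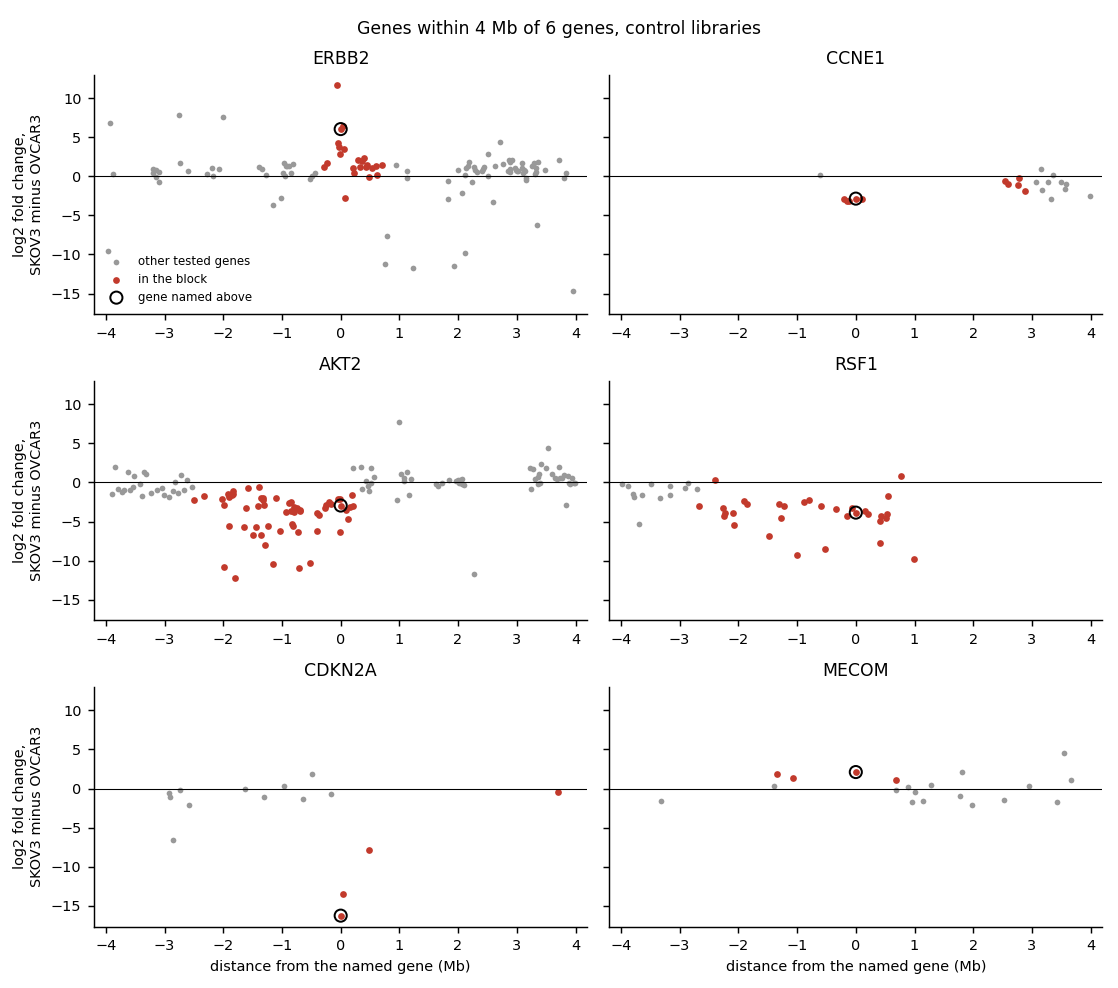
Log2 fold change (SKOV3 minus OVCAR3) of tested protein-coding genes by distance in Mb from the start of each anchor gene, up to 4 Mb on either side; points are genes, red inside the block and grey outside, and the anchor is ringed. Points inside the block lie mostly above 0 for ERBB2, with IKZF3 (-2.80) an exception, and below 0 for CCNE1, AKT2 and CDKN2A and mostly for RSF1; outside the blocks both signs occur, as for BLVRB (1.80) next to the AKT2 block.

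Whole chromosome arms also differed in their medians. Of 42 arms with at least 20 tested genes, the highest medians were those of 10p (1.11), 18q (0.99) and 8p (0.77). The lowest were 21p (-3.73, 20 genes), whose genes have near-identical copies and are uncertain, 14q (-1.08) and 3q (-0.87). Arms did not all keep their value in the construct comparisons. The 14q median was -0.28 in RSF1 against UAB, and the 22q median went from -0.85 to 0.28. The 19q median likewise went from -0.45 to 0.41. By contrast, 10p (0.86), 18q (0.50) and 8p (0.67) stayed above 0.

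**Figure D4:**
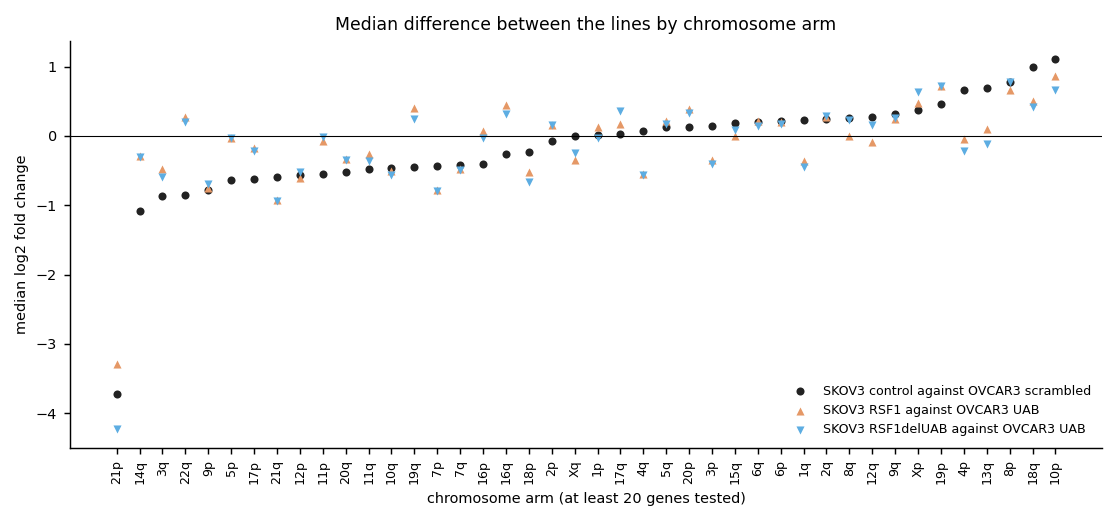
Median log2 fold change (SKOV3 minus OVCAR3) of the tested genes of each chromosome arm with at least 20 of them, for the control libraries and for the 2 construct comparisons. The arm medians 10p, 18q and 8p lie above 0 in each comparison, while 22q and 19q lie on different sides of 0.

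Regulators of the cell cycle differed gene by gene. Of 22 RB pathway and G1/S genes, 21 were tested, 11 were higher in SKOV3 and 7 were lower, with a median log2 fold change of 0.29 (-0.13 and -0.07 in the construct comparisons). RB1, the retinoblastoma tumour suppressor, was at 175, 172 and 189 CPM in SKOV3 and at 40.1 and 47.1 CPM in OVCAR3, a log2 fold change of 2.01 (SE 0.0923, adjusted p = 2.76e-13). Its relatives RBL1 (1.27) and RBL2 (1.07) and the inhibitor CDKN2C (3.65) were higher in SKOV3. CDKN1B (-1.76), CDKN1C (-4.05) and E2F4 (-1.75) were lower. CDK4, CDK6 and E2F3 did not pass, with log2 fold changes of 0.02, -0.10 and 0.03. The anchor gene CDKN1A, the inhibitor p21, was at 36.1, 38.2 and 37.7 CPM in SKOV3 and at 8.27 and 8.87 CPM in OVCAR3, a log2 fold change of 2.09 (SE 0.117, adjusted p = 5.52e-12), but in RSF1 against UAB its log2 fold change was -0.44, the other direction.

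Receptors and ligands of the ERBB family gave both directions. Of 16 receptors, ligands and inhibitors, 15 were tested, 8 were higher in SKOV3 and 6 were lower, with a median log2 fold change of 0.18. That median was -0.15 at a minimum count of 50, -1.62 in RSF1 against UAB and -2.17 in RSF1delUAB against UAB. ERBB3 was at 0.588, 0.725 and 0.834 CPM in SKOV3 and at 103 and 114 CPM in OVCAR3, a log2 fold change of -7.26 (SE 0.148, adjusted p = 2.07e-18), and ERBB4 was at 0.392, 0.856 and 0.834 CPM in SKOV3 and at 38.1 and 55.3 CPM in OVCAR3, a log2 fold change of -6.08 (SE 0.233, adjusted p = 5.86e-13). SKOV3 had high ERBB2 with little ERBB3 or ERBB4 RNA. EGFR was at 232, 220.2 and 222 CPM in SKOV3 and at 56.5 and 95.6 CPM in OVCAR3, a log2 fold change of 1.54 (SE 0.220, adjusted p = 8.52e-04), with a wide spread between the OVCAR3 libraries. The ligands NRG1 (3.09) and HBEGF (1.85) were higher in SKOV3, and NRG2 (-7.10) and EPGN (-7.09) lower.

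Of 22 RAS and PI3K pathway drivers, 21 were tested, 11 were higher in SKOV3 and 9 lower, with a median of 0.21. MYC was at 54, 56.6 and 55.6 CPM in SKOV3 and at 27.2 and 26.2 CPM in OVCAR3, a log2 fold change of 1.03 (SE 0.0939, adjusted p = 8.17e-09). INPP4B, a phosphatase of the pathway, was also higher in SKOV3 (2.88). Of 25 SWI/SNF subunits, 23 were tested, 12 were higher and 10 lower. ARID1A was at 108, 108 and 107 CPM in SKOV3 and at 119 and 158 CPM in OVCAR3, a log2 fold change of -0.39 (SE 0.0969, adjusted p = 0.00137). Its call was lost with all 13 libraries in 1 fit (adjusted p = 0.0800). SMARCC1, a core subunit, was at 20.4, 18.4 and 21.8 CPM in SKOV3 and at 275 and 261 CPM in OVCAR3, a log2 fold change of -3.75 (SE 0.0888, adjusted p = 1.38e-17).

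HOX genes, which set position along the body axis, separated the lines by cluster. Of 39 HOX genes, 32 were tested, 14 were higher and 15 lower. Of 11 tested HOXA genes, 9 were lower in SKOV3 and 1 was higher, with a median of -3.95. The exception was HOXA13, at 7.25, 5.60 and 5.52 CPM in SKOV3 and at 0.125 and 0.169 CPM in OVCAR3, a log2 fold change of 5.29 (SE 0.396, adjusted p = 4.26e-10). HOXB genes ran the other way: 8 of 9 were higher in SKOV3, with a median of 1.96. HOXB6 was at 159, 170.0 and 150.1 CPM in SKOV3 and at 0.794 and 0.549 CPM in OVCAR3, a log2 fold change of 7.85 (SE 0.154, adjusted p = 1.24e-18). Of 7 tested HOXC genes, 6 were lower, with a median of -8.05. Of 5 tested HOXD genes, all were higher, with a median of 2.79. The clusters thus fell into pairs, HOXA with HOXC and HOXB with HOXD. Cluster medians use fitted values, which are no bound for the 6 tested HOX genes at 0 counts in a line. HOXA5 and HOXC13 illustrate the lower clusters: HOXA5 was at 4.90, 4.08 and 4.49 CPM in SKOV3 and at 65.9 and 70.5 CPM in OVCAR3, and HOXC13 at 0 counts in all 3 SKOV3 libraries and at 11.3 and 7.77 CPM in OVCAR3. HOXD9 was at 14.9, 14.8 and 15.3 CPM in SKOV3 and at 0.251 and 0.253 CPM in OVCAR3.

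**Figure D5:**
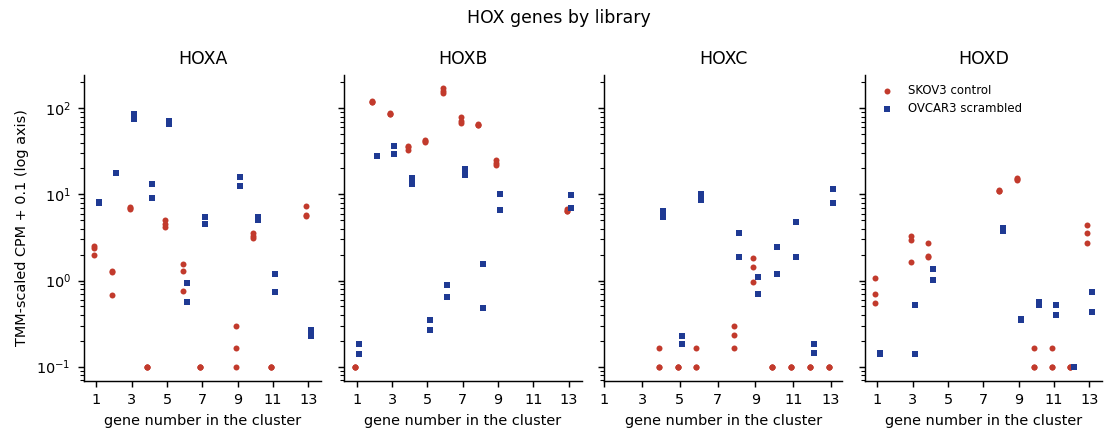
TMM-scaled CPM plus 0.1 (log axis) of HOX genes by their number in each cluster in the SKOV3 control (n = 3) and OVCAR3 scrambled (n = 2) libraries; points are libraries. HOXA and HOXC points lie mostly higher in OVCAR3 and HOXB and HOXD points mostly higher in SKOV3.

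Progenitor markers were partly exchanged between the lines. Of 16 such markers, 13 were tested, 4 were higher in SKOV3 and 9 were lower, with a median log2 fold change of -2.08. ALDH1A1, an aldehyde dehydrogenase, was at 0.0653, 0 and 0 CPM in SKOV3 and at 17.9 and 26.2 CPM in OVCAR3, a ratio of 1013 in favour of OVCAR3 (95% counting interval 181 to 40063). ALDH1A3, a related enzyme, was at 10.8, 10.7 and 12.8 CPM in SKOV3 and at 0.0418 and 0.0422 CPM in OVCAR3, a ratio of 273 in favour of SKOV3 (95% counting interval 75.1 to 2258). CD44 was at 392, 376 and 387 CPM in SKOV3 and at 59 and 48.5 CPM in OVCAR3, a log2 fold change of 2.81 (SE 0.0935, adjusted p = 1.99e-15), and CD24 was at 71.3, 70.4 and 73 CPM in SKOV3 and at 1164 and 1111 CPM in OVCAR3, a log2 fold change of -4.02 (SE 0.0738, adjusted p = 5.14e-19).

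Markers of other cell types were low or at 0 for the most part, and the sums of all 4 lists lay higher in OVCAR3. Of 14 immune markers, 3 were tested and all 3 were lower in SKOV3, with a summed level of 1.09 to 1.45 CPM in SKOV3 and 13.2 to 14.2 in OVCAR3. The B cell gene MS4A1 and the T cell gene CD3D were at 0 in all 5 libraries, but most of the 14 gave counts. In SKOV3 4 of them were at 0 counts and in OVCAR3 3 were, and the 3 called were each at least 4-fold lower in SKOV3. Of 11 fibroblast markers, 6 were tested and 4 were lower in SKOV3, and the sums were 20.2 to 22.2 CPM in SKOV3 and 165 to 189.8 in OVCAR3. FBLN1 made up most of the OVCAR3 sum. FBLN1, a matrix protein, was at 5.36, 4.68 and 5.13 CPM in SKOV3 and at 127 and 109 CPM in OVCAR3, a log2 fold change of -4.57 (SE 0.114, adjusted p = 2.85e-17), but had 138 ± 6.39 CPM in SKOV3 RSF1 (SD, n = 3). Of 10 endothelial markers, 6 were tested, 1 was higher and 4 were lower, with sums of 36.3 to 42.4 CPM in SKOV3 and 52.6 to 59.2 in OVCAR3. CDH5, the endothelial cadherin, was at 0 in SKOV3 and was the only endothelial marker at 0 counts there, while none was at 0 in OVCAR3. The 1 called higher in SKOV3 was at least 4-fold higher. Of 10 mesothelial markers, 6 were tested, 1 was higher and 4 were lower, with sums of 27.6 to 28.9 CPM in SKOV3 and 239.6 to 254 in OVCAR3. ITLN1, a mesothelial lectin, was at 0 in all 5 libraries, and of the 10 markers 3 were at 0 counts in SKOV3 and 1 in OVCAR3. The mesothelial list shares MSLN and WT1 with the histotype lists, and MSLN, given above as a serous antigen, made up most of the mesothelial sum in OVCAR3. The part of such cells in the differences above was not tested.

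Genes with a mean log2 CPM of at least 4 were ranked by fitted log2 fold change, which is no bound where a line had 0 counts, so that the order of such genes is not a measured one. PPP1R1B (11.62), with counts in both lines, ranked below the 10 highest, all of which had 0 counts in OVCAR3. The 10 lowest in SKOV3 were CDKN2A, FAM107A, TIMP3, KRT4, SLC34A2, UPK1B, MEOX1, ESRP1, CHCHD10 and BMP7. The 10 highest were THBD, DLC1, SNAI2, WNT7A, TRIM58, AMTN, CDH13, HS3ST3A1, ARL14EPL and ZEB1. TIMP3, an inhibitor of matrix proteases, was at 0 counts in all 3 SKOV3 libraries and at 319.8 and 217 CPM in OVCAR3, at least 4124-fold lower in SKOV3 (adjusted p = 3.89e-05), and had 11.1 ± 0.923 CPM in SKOV3 RSF1 (SD, n = 3). BMP7, a growth factor of the TGF-beta family, was at 0 counts in all 3 SKOV3 libraries and at 139 and 160.2 CPM in OVCAR3, at least 2295-fold lower in SKOV3 (adjusted p = 1.36e-17). UPK1B, a uroplakin, was at 0 counts in all 3 SKOV3 libraries and at 170.4 and 178 CPM in OVCAR3, at least 2677-fold lower in SKOV3 (adjusted p = 3.22e-18). These 3 genes encode secreted or membrane proteins, and all were without a count in SKOV3. THBD, the anticoagulant receptor thrombomodulin, was at 151, 156 and 152 CPM in SKOV3 and at 0 counts in both OVCAR3 libraries, at least 2427-fold higher in SKOV3 (adjusted p = 1.45e-18), and had 12 ± 0.536 CPM in SKOV3 RSF1 (SD, n = 3). DLC1, a GTPase-activating protein, was at 133, 124 and 136 CPM in SKOV3 and at 0 counts in both OVCAR3 libraries, at least 2086-fold higher in SKOV3 (adjusted p = 3.22e-18). WNT7A, a ligand of the Müllerian duct, was at 106, 101 and 102 CPM in SKOV3 and at 0 counts in both OVCAR3 libraries, at least 1632-fold higher in SKOV3 (adjusted p = 5.90e-18). None of these 3 gave a count in either OVCAR3 library. CDH13, a cadherin without a transmembrane domain, was at 63.7, 67.4 and 58 CPM in SKOV3 and at 0 counts in both OVCAR3 libraries, at least 1000.1-fold higher in SKOV3 (adjusted p = 9.52e-17). Each of the 7 genes described here had 0 counts in 1 of the 2 lines.

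The contrast between lines, with the same doubt about the SKOV3 stock, was available in libraries not used above. In SKOV3 RSF1 against OVCAR3 UAB, 74.9% of 18448 genes were called, 36.6% higher in SKOV3 and 38.3% lower. Of the 6831 genes higher in the SKOV3 controls, 4703 (68.8%) were also higher there, which is 69.7% of that comparison's own calls, and 425 were called lower. Of the 7739 lower, 5440 (70.3%) were also lower there, 76.9% of that comparison's calls, and 561 were called higher. Most calls were thus found in both comparisons, and a smaller part turned. For genes at least 4-fold apart, 1238 of 1944 higher (63.7%) and 2071 of 3393 lower (61.0%) were found there past the same size, 54.8% and 76.1% of that comparison's own. Past that size, 12.3% and 14.8% of genes were called there. In RSF1delUAB against UAB, 78.0% of genes were called, 37.8% higher and 40.2% lower. It shared 4950 higher (72.5%) and 5663 lower (73.2%) calls. Both use the same OVCAR3 UAB libraries.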

How the data were processed

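The values are counts of reads per gene, whole and unscaled, which the authors deposited in a separate table for each line. FastQC, STAR 2.7.9a and Subread are the tools in the submitters' processing notes, beside the builds GRCh38, hg38 and GRCm38. Which annotation release and strand setting were used is not given in the sources used here. GENCODE 29 and the tables share 58279 genes, of which 58264 lie at overlapping GRCh38 positions. A symbol was found for 62625 of 62703 genes. The ANK2 record, broken across lines, was rejoined. Labels set the groups, and the column taken for OVCAR3 scrambled replicate 2 carries an unexplained letter.

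The 5 libraries were joined by gene ID and fitted with edgeR 4.0.16 in R 4.3.3: scaling by TMM, a filterByExpr minimum count of 10, a robust quasi-likelihood test and Benjamini-Hochberg adjustment over 18056 genes at 0.05 (coefficient of biological variation 0.0825, with 3 residual degrees of freedom). The prior count was 0.125, and each SE is the size of the log2 fold change divided by the root of F. For genes near 0 in a line, such as CLDN3, RAB25, IGFBP4, CDH1 and WFDC2, this SE understates the counting error of the fold. CPM are TMM-scaled over all 13 libraries, and RPKM use the length in the files. The scripts were tested on simulated data in which few genes changed, unlike the lines here, where most did. Lists were described by counts and medians, with no set test. A block joins tested protein-coding genes with a mean log2 CPM of at least 1 that are at least 2-fold apart in 1 direction, bridging 1 gene at a time. Alternatives were RLE, upper-quartile and unscaled libraries, no filter, a minimum count of 50, DESeq2 1.42.0, limma-voom 3.58.1, glmTreat, all 13 libraries in 1 fit, a replicate block, each replicate left out and both construct comparisons.

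The members and lists were chosen with earlier results of these data known. The text names anchor genes, the 10 largest log2 fold changes in each direction (mean log2 CPM of at least 4, no overlap), up to 4 called members of each list in each direction, genes next to the block anchors, and the 3 highest and lowest arms; other members were named after their values were seen. Some genes and 1 list that this rule covers are not reported here, though counts over lists include them. Genes with near-identical copies (KRT81, KRT86, SPANXB1, histone, zinc finger, protocadherin and ribosomal protein genes), overlapping and antisense genes are uncertain.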

Additional observations from a re-analysis of the deposited data

Results flagged for a closer look

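Of the 183 genes named by rule, 9 were called in opposite directions between SKOV3 and OVCAR3 in the control libraries and in SKOV3 RSF1 against OVCAR3 UAB. Over all genes, 425 of the 6831 called higher in the SKOV3 controls and 561 of the 7739 called lower turned likewise. The pairs of groups compared share no library. The difference between the contrasts was tested in 1 edgeR fit of all 13 libraries, adjusted over all genes. Since the 9 genes were picked for opposite calls in these same libraries, low adjusted p-values follow from that choice and add no support. Given as the control log2 fold change minus the construct one, the difference was positive for CDKN1A 2.55 (SE 0.182, adjusted p = 3.06e-11), NR2F1 4.73 (SE 0.260, adjusted p = 2.29e-13) and KRT80 1.31 (SE 0.130, adjusted p = 1.03e-08). It was also positive for CTNNB1 0.60 (SE 0.102, adjusted p = 2.92e-05), DSP 1.42 (SE 0.304, adjusted p = 0.00356) and HACD4 0.78 (SE 0.178, adjusted p = 8.89e-04).

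The difference was negative for GLRX -3.21 (SE 0.230, adjusted p = 3.24e-11), COL1A2 -2.75 (SE 0.277, adjusted p = 1.36e-08) and FBLN1 -5.12 (SE 0.141, adjusted p = 3.90e-19). FBLN1 had 5.06 ± 0.346 CPM in SKOV3 control and 138 ± 6.39 in SKOV3 RSF1 (SD, n = 3 each), 118 ± 13 in OVCAR3 scrambled and 92.5 ± 4.52 in OVCAR3 UAB (SD, n = 2 each). CDKN1A had 37.3 ± 1.12 and 8.75 ± 0.898 CPM in the same SKOV3 groups (SD, n = 3 each), and 8.57 ± 0.423 and 11.8 ± 1.22 in the OVCAR3 groups (SD, n = 2 each).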

How the results depend on the processing

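Counts of genes called in the controls stayed within 1.5 times of the main count under the alternatives, except glmTreat against a fold of 2 (3152 higher and 4556 lower) and a minimum count of 50 (1171 at least 4-fold higher, 1995 lower), which tests fewer genes. DESeq2 called 6477 and 7340. Leaving out each replicate gave 6555 to 6994 higher, 7505 to 8023 lower, 1938 to 2195 at least 4-fold higher and 3552 to 3810 lower; without an OVCAR3 replicate its lone library is assumed to vary like SKOV3. The replicate block gave 6422 higher and 7310 lower. Deviations of same-numbered libraries had r = -0.0023 across genes, which is too little to show whether these libraries shared a preparation. NUMBL lost its call under upper-quartile scaling, DESeq2, a minimum count of 50 and without SKOV3 replicate 1 or 2 or OVCAR3 replicate 2, HACD4 with the block and KDR without OVCAR3 replicate 2 (adjusted p = 0.203). No list median changed sign under another scaling. Other settings turned some: a minimum count of 50 for oestrogen response (0.99), clear cell (0.19) and ERBB genes (-0.15), and the loss of OVCAR3 replicate 2 for HOX genes (-0.16, from 0.14). In RSF1 and RSF1delUAB against UAB, medians turned for 3q26 (0.23 in both), RB pathway (-0.13 and -0.07), ERBB (-1.62 and -2.17), mucinous (-1.40 and -2.14) and fibroblast genes (0.58 and 1.34), and in the second for clear cell (0.79) and HOX genes (-1.02).

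Of the 183 genes named by rule, the log2 fold change in RSF1 against UAB turned sign for RSF1 (0.13), CDKN1A (-0.44), NR2F1 (-1.77), GLRX (2.24), CTNNB1 (-0.28), DSP (-0.46), KRT80 (-0.75), COL6A1 (0.056), COL1A2 (0.60), IFNE (-0.14), HACD4 (-0.39), CCNE2 (-0.13), BBC3 (0.10), BCL7C (0.017) and FBLN1 (0.57). In RSF1delUAB against UAB it did for CAPS (0.24), GLRX (2.06), CTNNB1 (-0.39), DSP (-0.38), KRT80 (-1.55), COL6A1 (0.025), COL1A2 (1.82), HACD4 (-0.25), ATF5 (-0.36), SLC3A2 (-0.39) and FBLN1 (0.86). Among other called genes of the text, TENM4 (2.50 and 1.76) and MMP2 (4.17 and 3.84) turned in both, and NKD1 (-0.18) and ACTN4 (0.012) in the first. RSF1 is the overexpressed gene; for the others the cause was not tested. With 3 and 2 libraries and 3 residual degrees of freedom, and floors of 3 counts per library at 0.125 to 0.198 CPM, small differences of low genes were not detectable.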

Other observations

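Runs of neighbouring genes, in the blocks around AKT2 and RSF1 and elsewhere, separated the lines. Among 12417 genes walked along the chromosomes, 14 runs had at least 10 neighbours, each at least 2-fold apart in 1 direction, 10 of them lower in SKOV3 and 4 higher. On Xq, 14 genes from ARMCX4 to RAB40A had a median log2 fold change of -9.33, and -4.13 in RSF1 against UAB. On 5q, 13 protocadherin genes from PCDHA3 to PCDHB14 were higher in SKOV3, with a median of 9.36, and are uncertain because they share near-identical stretches. On 19q, a run of 25 genes was higher (ZNF480 to ZNF813, a zinc finger cluster, median 2.74), directly followed by 20 genes that were lower (ZNF331 to CDC42EP5, -3.48). A run of 10 keratin genes from KRT7 to KRT18 was lower (-4.83), and 11 genes from RPP38 to STAM on 10p, VIM among them, were higher (2.10).

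Of 35 cancer-testis and oncofetal genes, 13 were tested, 2 were higher in SKOV3 and 11 were lower. LIN28B, an RNA-binding protein of fetal tissue, was at 0 counts in all 3 SKOV3 libraries and at 7.81 and 10.5 CPM in OVCAR3, at least 141-fold lower in SKOV3 (adjusted p = 6.09e-11). IGF2BP1, another, was at 0, 0.0659 and 0.0642 CPM in SKOV3 and at 22.2 and 26.8 CPM in OVCAR3, a ratio of 564 in favour of OVCAR3 (95% counting interval 156 to 4665). HMGA1, a chromatin protein, was at 822, 858 and 835 CPM in SKOV3 and at 244 and 241 CPM in OVCAR3, a log2 fold change of 1.76 (SE 0.0725, adjusted p = 5.03e-14). Of 24 genes of the integrated stress response, 19 were lower and 3 higher. PHGDH, the first enzyme of serine synthesis, was at 28.3, 27.5 and 24.9 CPM in SKOV3 and at 629.8 and 517 CPM in OVCAR3, a log2 fold change of -4.44 (SE 0.0957, adjusted p = 3.56e-18), and SLC7A11, a cystine transporter, was at 459, 444 and 471 CPM in SKOV3 and at 37.1 and 40.2 CPM in OVCAR3, a log2 fold change of 3.54 (SE 0.0869, adjusted p = 2.18e-17). Of 13 mitochondrially encoded genes, 12 were lower in SKOV3, beside the lower mitochondrial share of counts in these libraries.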
